A study of Mus musculus with 18 samples.

Results

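The subject of these results is how loss of the histone demethylase Kdm7a altered the response of macrophage-like cells to M2 stimulation, gene by gene. RAW264.7 is a mouse macrophage-like cell line. Control cells carried a control guide RNA, while CRISPR/Cas9 had been used to knock out Kdm7a in the other line. Both lines spent 48 h either unstimulated (M0) or in M2 medium, with 3 libraries of each of these 4 groups. The M2 medium held the interleukins IL-4, IL-13 and IL-10 (20 ng/ml of each) together with 2 ng/ml of human TGF-β1. The genotype difference in the M2 response is the change from M0 to M2 in knockout (KO) cells minus the same change in control cells. It therefore used 12 of the 18 libraries of the series. The other 6 came from both lines under M1 conditions, interferon γ at 2 ng/ml with lipopolysaccharide at 0.1 µg/ml. They enter here through the choice of genes tested, the variance estimate, the M1 levels used below and 1 later comparison. Only 1 knockout line and 1 control line are named in the labels, so a difference between the lines that does not come from Kdm7a cannot be told apart from an effect of the knockout. Nothing in the labels says that the 3 libraries of a group came from separate cultures, so the p-values reflect how far these libraries lie apart, a spread that may be technical.

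Kdm7a belongs to the Jumonji family of demethylases, which use iron and 2-oxoglutarate to take methyl groups off histones, and its known substrates are repressive marks. IL-4 and IL-13 act on macrophages through their shared receptor chain and the transcription factor STAT6, IL-10 through STAT3, and TGF-β through its serine/threonine kinase receptors and SMAD proteins. Together these cytokines turn macrophages toward an alternatively activated state known for arginase, transglutaminase, scavenger receptors and tissue remodelling. Such a state is set against the M1 state, in which interferon and Toll-like receptor signals raise inflammatory and antiviral genes.

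The values are TPM, a length-normalised share of each library's transcripts with a fixed total, and keep no sequencing depth. Libraries of a group were alike, with correlations of 0.994 to 0.996 across genes on the log2 scale. Between control and KO libraries the correlations were 0.989 to 0.991 at M0 and 0.987 to 0.988 under M2. Of 20 macrophage identity genes, 18 stood at 1 TPM or more in each of the 4 groups, and their summed level was 9154 to 10824 TPM. Of 34 markers of other cell types, 12 were at 0 in all 12 libraries. Some libraries held more of another condition's genes than others of their group. In control M2 libraries 1 and 2, 25 genes of the M1 state had median levels of 0.0855% and 0.201% of their M1 level, against 0.0214% in library 3. They stood at 0.0544% to 0.0976% in the M0 libraries of both lines and at 0.0333% to 0.042% in KO M2 libraries, so control M2 library 1 lay within the range of the unstimulated libraries and library 2 above it. In KO M0 libraries 2 and 3, 8 genes of the M2 state stood at a median of 0.477% and 0.464% of their M2 level, against 0.261% in library 1 and 0.0168% to 0.172% in control M0 libraries. The 25 M1 genes include Nos2 and Cxcl10, and the 8 M2 genes include Arg1, Cish, Id1 and Il4i1. Several results are given with and without these libraries. Leaving out either pair leaves 1 library in that group, which widens the error of the contrast, and no other pair was left out for comparison. A call lost in such a fit therefore does not show that the result rested on those libraries. Other list counts are given for the main fit only, and some of those also changed without these libraries.

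Kdm7a itself (chr6:39136620-39206773, GRCm38.p6) was lower in KO cells in both conditions. Control libraries held 11.29, 11.03 and 10.96 TPM at M0 and 24.47, 23.27 and 22.21 TPM under M2. KO libraries held 3.33, 3.25 and 3.52 TPM at M0 and 5.83, 7.54 and 7.04 TPM under M2. The KO libraries were below every control library of the same condition, and the level rose under M2 in both lines, by 2.10-fold in control and 2.02-fold in KO cells. Its genotype difference in the response was −0.18 ± 0.097 (log2, SE), which did not pass the test (limma adjusted p = 0.257).

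M2 stimulation moved most of the transcriptome in both lines, and mostly in the same direction. Among 11548 genes tested with limma on log2(TPM + 1), 65.4% passed an adjusted p of 0.05 for the response in control cells and 72.9% for that in KO cells. Across these genes the control and KO responses, which share no library, had a Pearson correlation of 0.935 and a Spearman correlation of 0.908. This is a description across genes, which are not independent. The genotype difference itself passed for 1629 genes, 815 with a higher response in KO cells (7.06% of tested genes) and 814 with a lower one (7.05%). A difference of 2-fold or more was far rarer, with 57 genes higher (0.494%) and 19 lower (0.165%). The even split depends on scaling and on the groups fitted. With only the 4 groups compared in the fit, 716 were higher and 877 lower. Higher differences were 815 of the 1629 calls on the TPM scale, but 60.4% of the calls with TMM factors and 63.8% with median-ratio scaling, while the median over all tested genes moved from −0.034 to −0.012 and −0.0038. Fewer differences passed, higher and lower, without KO M0 libraries 2 and 3 or without control M2 libraries 1 and 2. Each of these fits has 1 library left in that group, so the loss cannot be laid to those libraries. The median over all tested genes was −0.029 and −0.028 in these fits. The part of the traces in the calls was not tested.

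**Figure D1:**
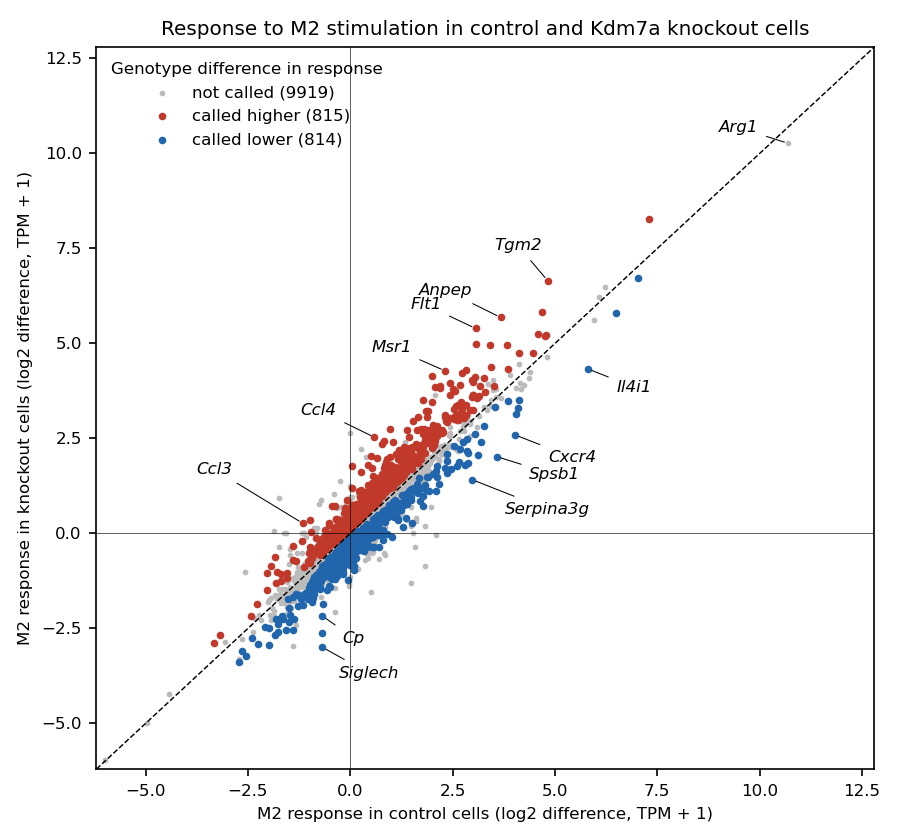
M2 response of each of 11548 tested genes in control cells (x axis) and KO cells (y axis), both as log2 differences of TPM + 1 between M2 and M0 means of 3 libraries. Red points (815) responded higher and blue points (814) lower in KO cells at a limma adjusted p below 0.05, the dashed line marks equal responses, and most of the red points far from the line lie at the right, among genes raised in both lines.

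The commonest form of a higher difference was a gene that M2 raised in both lines, and raised further in KO cells. This held for 534 of the 815, including 47 of the 57 at 2-fold or more. A further 130 rose in KO cells with no called response in control cells, 66 fell in both lines but less in KO cells, 54 fell with a call in control cells only and 30 fell in control but rose in KO cells. Of the 814 lower differences, 463 were genes that fell in both lines and fell further in KO cells. Another 142 fell with a call in KO cells only, 122 rose in both but less in KO cells, 64 rose with a call in control cells only and 23 rose in control but fell in KO cells. The median response of the genes with a higher difference was 0.38 in control and 0.73 in KO cells (log2), and that of the genes with a lower difference was −0.23 and −0.54. The size of the response, whatever its sign, was larger in KO cells for 82.8% of the higher and 75.9% of the lower differences, and for 67.6% of all tested genes.

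A genotype difference in the response can come with a difference between the lines before stimulation, under it, or both. KO and control cells differed at 19.2% of tested genes at M0 and at 30.9% under M2. Among the 1629 genes, 374 differed only under M2 with a higher level in KO cells, and 471 only under M2 with a lower level. Conversely, 196 genes were lower and 176 higher in KO cells at M0 with no called difference under M2. In 116 genes a lower level at M0 turned into a higher one under M2, and in 54 a higher level turned into a lower one. A further 85 were lower and 75 higher in KO cells in both conditions, and 82 passed in neither.

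**Figure D2:**
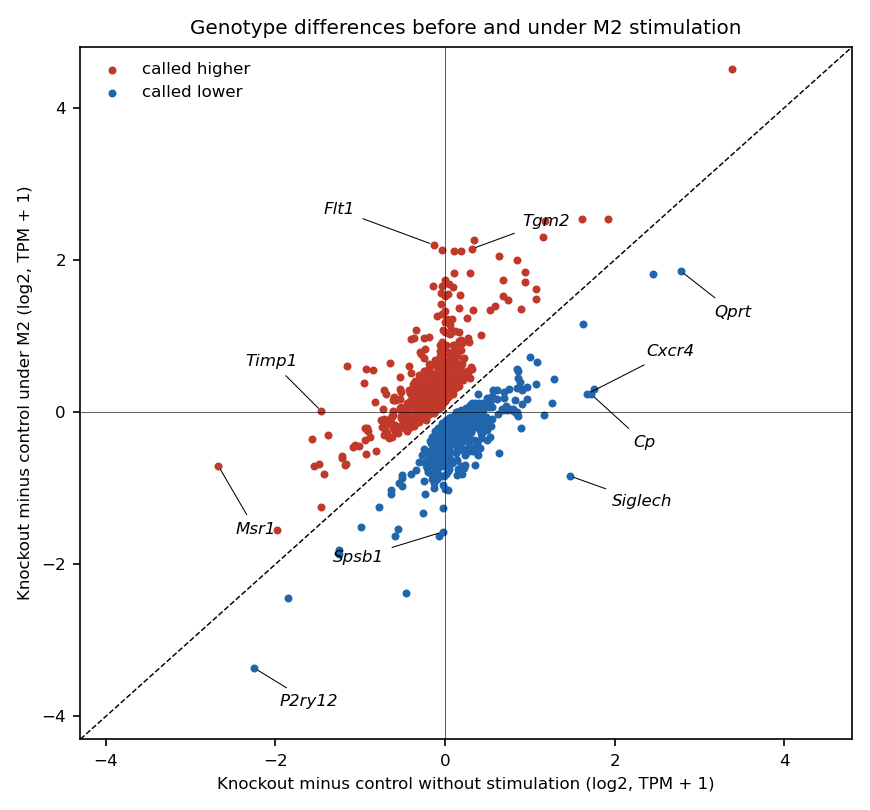
KO minus control at M0 (x axis) and under M2 (y axis), in log2 differences of TPM + 1, for the 815 genes with a higher (red) and 814 with a lower (blue) M2 response in KO cells. The dashed line marks equal differences, Flt1 sits near 0 at M0 and at 2.20 under M2, and Msr1, Timp1, Cp and Cxcr4 lie far from 0 at M0 and nearer to it under M2.

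Flt1 was raised in both lines, and further in KO cells. Flt1, which encodes a receptor for vascular endothelial growth factor (chr5:147561604-147726438), was at 0.46, 0.48 and 0.56 TPM in control M0 libraries and 12.25, 10.87 and 11.47 TPM in control M2 libraries. In KO cells it was at 0.38, 0.31 and 0.41 TPM at M0 and 50.39, 57.72 and 61.88 TPM under M2. The lines were both low at M0, and under M2 every KO library was more than any control library. Its response was 3.06 in control and 5.39 in KO cells, a difference of 2.33 ± 0.12 (log2, SE, limma adjusted p = 1.3e-10).

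Anpep, aminopeptidase N or CD13 (chr7:79821803-79848210), was listed at 0 in all 3 control M0 libraries and at 12.62, 10.83 and 11.85 TPM in control M2 libraries. KO libraries held 0.06, 0.13 and 0.03 TPM at M0 and 49.16, 55.0 and 58.69 TPM under M2. The gene was nearly silent without stimulation in both lines, and its M2 levels did not overlap. The difference was 2.01 ± 0.12 (limma adjusted p = 1.17e-09).

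Tgm2, transglutaminase 2, a protein-crosslinking enzyme and a widely used marker of alternative activation (chr2:158116405-158146392), read 2.04, 1.72 and 1.65 TPM in control M0 and 70.74, 86.56 and 77.61 TPM in control M2 libraries. In KO cells it read 2.01, 2.38 and 3.13 TPM at M0 and 313.72, 384.87 and 350.55 TPM under M2. M0 libraries of the lines overlapped, whereas the KO mean under M2 was 4.47 times the control mean. The difference was 1.83 ± 0.14 (limma adjusted p = 6.94e-08). Cystm1, a small membrane protein gene, differed by 2.16 ± 0.22, with 4.83 ± 0.95 TPM in control and 24.3 ± 1.1 TPM in KO cells under M2 (SD, n = 3).

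Among chemokines the pair Ccl3 and Ccl4, which attract monocytes and T cells, stood out. Ccl4 (chr11:83648624-83664683) was at 16.57, 19.34 and 24.69 TPM in control M0 and 26.65, 33.76 and 31.68 TPM in control M2 libraries. KO cells held 20.71, 21.8 and 26.26 TPM at M0 and 135.51, 134.53 and 139.23 TPM under M2. The lines overlapped at M0 and were far apart under M2, and the difference in response was 1.94 ± 0.17 (limma adjusted p = 2.8e-06). Ccl3 (chr11:83647843-83649378) went in opposite directions. It fell from 140.06, 138.25 and 138.04 TPM to 59.89, 66.92 and 58.02 TPM in control cells, and rose from 111.19, 104.35 and 111.87 TPM to 131.33, 119.01 and 145.75 TPM in KO cells. The difference was 1.43 ± 0.081 (limma adjusted p = 1.89e-09). The 2 genes are related and their annotated spans overlap, and how any shared reads were assigned is not given in the sources used here. Of 16 tested chemokines, 3 had a higher response in KO cells and 2 a lower one, with a median of −0.04 against −0.034 over all tested genes. Among all tested genes 7.06% were higher and 7.05% lower. Counts of this and the later lists are to be read beside these shares.

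Several higher differences reflected a lower start rather than a higher end. Msr1, the class A scavenger receptor (chr8:39543232-39642750), was at 11.78, 12.08 and 13.35 TPM in control M0 and only 0.81, 1.31 and 1.21 TPM in KO M0 libraries. Under M2 it reached 62.9, 66.34 and 67.59 TPM in control, against 39.39, 40.69 and 39.13 TPM in KO cells. KO libraries were below all control libraries in both conditions, yet the fold response was 5.29 in control and 35.8 in KO cells, and the difference was 1.96 ± 0.092 (limma adjusted p = 6.01e-11). In TPM the gain was smaller in KO cells, so the direction depends on whether folds or differences are compared. That was the case for 32 of the 1629 genes (1.96%) and for 3 of the 76 with a difference of 2-fold or more. Timp1, an inhibitor of matrix metalloproteinases, was at 2.04, 2.44 and 2.08 TPM in control M0 libraries and at 0, 0.24 and 0.25 TPM in KO M0 libraries. Both lines reached similar levels under M2, 21.8 ± 0.96 and 22.0 ± 1.4 TPM (SD, n = 3), and the difference in response was 1.47 ± 0.13.

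Dhrs9, a short-chain retinol dehydrogenase (chr2:69380462-69403086), crossed over. Control libraries held 20.54, 22.56 and 21.4 TPM at M0 and 45.15, 42.75 and 41.63 TPM under M2, and KO libraries 8.55, 8.64 and 10.02 TPM and then 59.08, 71.7 and 69.29 TPM. KO cells were lower in every library at M0 and higher in every library under M2, with a difference of 1.77 ± 0.11 (limma adjusted p = 1.8e-09). C3ar1, the receptor for the complement fragment C3a, also crossed over, from 11.2 ± 0.70 to 79.9 ± 3.6 TPM in control and from 5.43 ± 0.54 to 119 ± 13 TPM in KO cells (SD, n = 3), a difference of 1.49 ± 0.097 (SE). Ocstamp, a membrane protein needed for osteoclast fusion, reached 14.4 ± 1.6 TPM in control and 53.6 ± 3.9 TPM in KO cells under M2 from 3.50 ± 0.25 and 3.85 ± 0.70 TPM. Ambp, the precursor of α-1-microglobulin and bikunin, reached 10.4 ± 0.52 and 35.2 ± 3.1 TPM from 1.52 ± 0.19 and 1.46 ± 0.19 TPM.

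**Figure D3:**
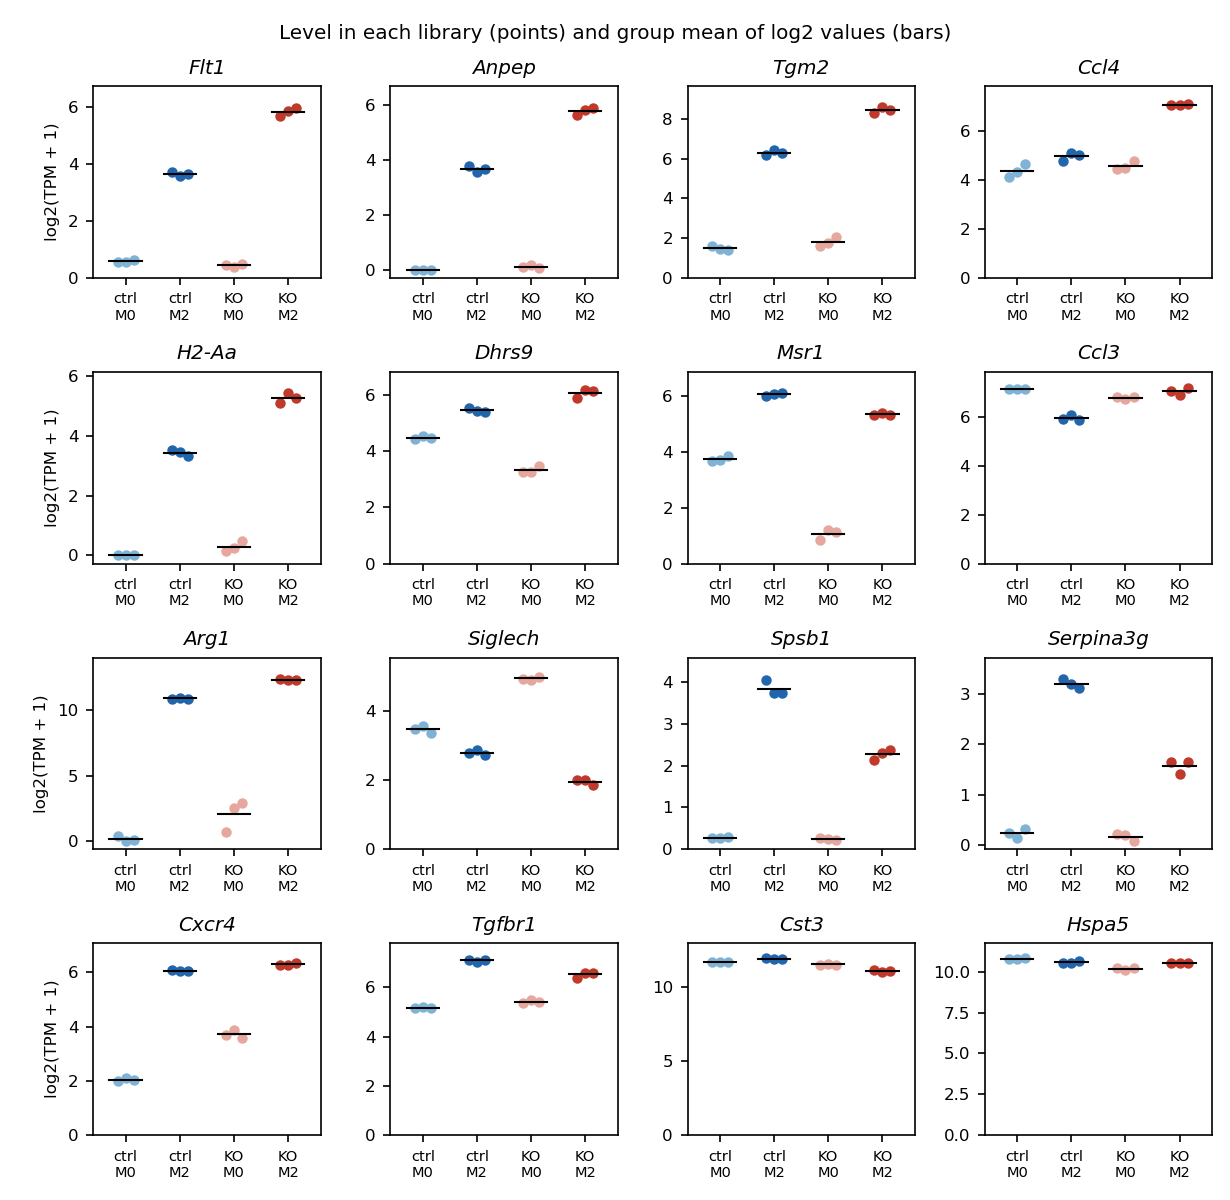
Level of 16 genes in each of the 12 libraries (points) as log2(TPM + 1), with the mean of the log2 values of each group as a bar, for control (ctrl) and KO cells at M0 and M2. KO M2 points of Flt1, Anpep, Tgm2 and Ccl4 lie above all other points, those of Spsb1 and Serpina3g lie below the control M2 points, and the Arg1 points of KO M0 cells are spread from 0.59 to 6.58 TPM.

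Promoter sequences of the genes with the largest higher differences are shown because of a pattern for the AP-1 site, bound by Fos and Jun family dimers. Its share differed most among the 4 motifs searched. The pattern, TGANTCA, leaves the middle base free, and the H2-DMb1 match shown has a T there. The sequences are from RefSeq, build GRCm38.p6, and span 250 bases before to 50 bases after each gene's start. Of the tested genes, 8784 had such a window. TGANTCA, which reads the same on both strands, was found for 10 of 40 genes higher by 2-fold or more with a window, 10.77% of all called higher, 6.01% of those called lower, 6.28% of tested genes and 8.97% of all genes with a window. The STAT6 motif TTCNNNNGAA was found for 10.0%, 6.57%, 6.01%, 6.57% and 8.01% of the same groups, and the general STAT motif TTCNNNGAA for 7.5%, 9.26%, 8.39%, 8.42% and 9.55%. The SMAD palindrome GTCTAGAC was found for 1 of 632 genes called lower and 0.3% of tested genes. These are counts of letters in a window, chosen for display after the shares were seen, and they show neither binding nor a cause. For 7 of the 10 genes, 61 bases around the motif follow, 5′ to 3′ on the strand of the gene, with the motif in capitals.
Dhrs9: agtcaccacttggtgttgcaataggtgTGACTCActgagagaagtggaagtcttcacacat
C3ar1: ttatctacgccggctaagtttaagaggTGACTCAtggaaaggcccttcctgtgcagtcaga
H2-DMb1: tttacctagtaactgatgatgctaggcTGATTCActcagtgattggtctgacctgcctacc
Il13ra2: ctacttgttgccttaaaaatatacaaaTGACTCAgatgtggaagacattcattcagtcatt
Fas: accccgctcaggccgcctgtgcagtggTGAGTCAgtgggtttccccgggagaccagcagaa
Itgax: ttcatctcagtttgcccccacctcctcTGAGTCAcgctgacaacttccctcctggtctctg
Plaur: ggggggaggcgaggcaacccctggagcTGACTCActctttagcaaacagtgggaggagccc
The Dhrs9 stretch is chr2:69380417-69380477 on the plus strand, with the motif 18 bases before the start. The C3ar1 stretch is chr6:122856146-122856206 on the minus strand, with the motif 22 bases before the start. The others are chr17:34153089-34153149 (plus) for H2-DMb1, chrX:147429352-147429412 (minus) for Il13ra2, chr19:34290421-34290481 (plus) for Fas, chr7:128129467-128129527 (plus) for Itgax and chr7:24462387-24462447 (plus) for Plaur. Their motifs begin 75, 193, 211, 56 and 69 bases before an annotated start in that order. For Fas, Itgax and Plaur this start lies inside the span of the gene.

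Genes for MHC class II presentation, which load and display peptides to helper T cells, held more higher than lower calls. Among all tested genes the shares were 7.06% higher and 7.05% lower. Of 16 tested members, 8 had a higher response in KO cells and 1, Rfx5 (named after its value was seen), a lower one, with a median difference of 0.28 against −0.034 over all tested genes. The lower call was not kept in either fit without a pair of libraries with traces. H2-Aa, the class II α chain (chr17:34282744-34287823), was listed at 0 in the 3 control M0 libraries, at 0.1, 0.18 and 0.41 TPM in KO M0 libraries, at 10.52, 9.89 and 8.87 TPM in control M2 and at 33.14, 41.45 and 37.39 TPM in KO M2 libraries. M2 levels did not overlap, and the difference was 1.54 ± 0.15 (limma adjusted p = 6.04e-07). H2-Eb1, a β chain, was at 3.79 ± 0.29 TPM in control and 14.3 ± 0.32 TPM in KO cells under M2 (SD, n = 3), a difference of 1.63 ± 0.12. H2-DMb1, part of the H2-DM complex that exchanges peptides, was at 3.29 ± 0.52 and 10.5 ± 1.5 TPM under M2 and differed by 1.47 ± 0.16. The pseudogene H2-Ea-ps differed by 1.92 ± 0.16. Several of these genes start near 0, where the small constant added before the logarithm matters. With 0.1 TPM in place of 1 TPM, 4 members stayed higher and 1 lower, the median was 0.05, and H2-Aa and H2-Ea-ps no longer passed. Without KO M0 libraries 2 and 3 the count of higher members was 7, and without control M2 libraries 1 and 2 it was 6.

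H2-Ab1 and Ciita show that limit. H2-Ab1, a class II β chain (chr17:34263227-34269418), was at 0.53, 0.44 and 0.34 TPM in control M0 and 4.32, 3.94 and 5.13 TPM in KO M0 libraries, and at 5.92, 6.43 and 6.57 TPM in control M2 and 43.99, 40.23 and 39.62 TPM in KO M2 libraries. KO cells were higher in every library of both conditions, by 10.2 times at M0 and 6.55 times under M2. The fold response was 14.4 in control and 9.25 in KO cells, while the difference on the log2(TPM + 1) scale was 0.61 ± 0.12 (limma adjusted p = 0.00174) and with 0.1 TPM it was −0.40. Ciita, the master coactivator of class II genes, rose from 0.070 ± 0.010 to 28.3 ± 0.80 TPM in control and from 0.220 ± 0.087 to 44.2 ± 2.0 TPM in KO cells (SD, n = 3), with a difference of 0.44 ± 0.10 and of −0.23 with 0.1 TPM. Ciita no longer passed without control M2 libraries 1 and 2 (limma adjusted p = 0.0530). For both genes the KO level under M2 was higher, but the direction of the difference in response turned with the constant. Class II genes are close paralogs, so reads shared among them could have been assigned in more than 1 way.

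Receptors of the innate surface were a further group with many higher differences. Of 26 tested Fc, complement and pattern recognition genes, 13 were higher and 2 lower, beside 7.06% and 7.05% of all tested genes. The median of the group was 0.21. C3ar1 led the group, followed by Itgax, the integrin αX or CD11c, at 5.08 ± 0.51 TPM in control and 13.2 ± 2.0 TPM in KO cells under M2 (SD, n = 3; difference 1.20 ± 0.14, SE).

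Among 23 tested scavenger, lectin and Siglec receptors, 9 were higher and 1 lower, with a median of 0.25. Cd36, a receptor for oxidized lipoprotein and fatty acids (chr5:17781690-17888959), was at 0.21, 0.24 and 0.45 TPM in control M0 and 1.27, 1.43 and 1.33 TPM in KO M0 libraries, and at 29.68, 34.63 and 32.87 TPM in control M2 and 128.61, 138.61 and 129.04 TPM in KO M2 libraries. KO libraries were higher in both conditions, by 4.48 and 4.08 times, so the fold responses were close, 108 and 98.3. Its difference of 1.14 ± 0.095 on the log2(TPM + 1) scale did not pass with 0.1 TPM. Clec7a, the β-glucan receptor dectin-1, rose from 2.48 ± 0.28 to 12 ± 1.0 TPM in control and from 4.01 ± 0.43 to 31.7 ± 0.75 TPM in KO cells (SD, n = 3), a difference of 0.81 ± 0.15.

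Receptors of the IL-1 and TNF families and macrophage identity genes held more higher than lower differences. Of 13 tested IL-1 family genes, 4 were higher, with a median of 0.02. Il1rl1, the receptor for IL-33, was at 20.42, 20.32 and 20.77 TPM in control M0 and 19.08, 19.36 and 17.17 TPM in control M2 libraries, and at 16.63, 19.0 and 18.11 TPM in KO M0 and 27.25, 30.3 and 30.01 TPM in KO M2 libraries. KO libraries were below all control libraries at M0 and above them under M2, and the difference was 0.82 ± 0.093 (limma adjusted p = 4.51e-06). Il18rap, a chain of the IL-18 receptor, likewise rose in KO cells only by the test, from 29.6 ± 1.7 to 50.4 ± 2.1 TPM, beside 40.1 ± 1.1 and 41.0 ± 1.7 TPM in control cells (SD, n = 3). Of 23 tested TNF family genes, 8 were higher and 1 lower, with a median of 0.03. Fas, the death receptor CD95, reached 10.8 ± 1.0 TPM in control and 29.5 ± 1.5 TPM in KO cells from 1.19 ± 0.41 and 1.43 ± 0.21 TPM.

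Of 18 tested macrophage identity genes, 8 were higher and 1 lower, with a median of 0.16. Cd14, the coreceptor for lipopolysaccharide, fell in both lines. It went from 608.43, 585.65 and 594.53 TPM to 184.92, 182.9 and 184.03 TPM in control and from 610.91, 596.6 and 605.34 TPM to 307.67, 274.85 and 290.08 TPM in KO cells. M0 levels overlapped and KO libraries stayed higher under M2, with a difference of 0.64 ± 0.046 (limma adjusted p = 1.03e-08). St3gal6 and Ptpn22 also fell less in KO cells. St3gal6, a sialyltransferase, fell from 91.6 ± 1.2 to 21.6 ± 1.9 TPM in control and from 116 ± 1.3 to 56.1 ± 1.7 TPM in KO cells (SD, n = 3). Ptpn22, a phosphatase that restrains immune receptor signalling, fell from 14.1 ± 0.51 to 5.66 ± 0.56 TPM and from 14.7 ± 0.84 to 12.6 ± 1.2 TPM.

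Lipid and lysosome genes followed in part. Of 23 tested LXR and PPAR lipid handling genes, 7 were higher and 1 lower, with a median of −0.0093. Lipa, the lysosomal acid lipase, was at 198.41, 203.84 and 210.96 TPM in control M0 and 523.76, 524.26 and 512.2 TPM in control M2 libraries, and at 184.6, 188.41 and 189.18 TPM in KO M0 and 830.86, 834.35 and 847.93 TPM in KO M2 libraries. It was slightly lower in KO cells at M0 and clearly higher under M2, with a difference of 0.81 ± 0.038 (limma adjusted p = 6.01e-11). Lpl, lipoprotein lipase, fell in both lines, from 165 ± 2.4 to 47.1 ± 0.78 TPM in control and from 129 ± 0.95 to 62.7 ± 4.6 TPM in KO cells (SD, n = 3). Of 34 tested lysosomal genes, 12 were higher and 4 lower, with a median of 0.09. Ctsc, the protease cathepsin C, was among the lower ones, reaching 220 ± 2.0 TPM in control but 132 ± 3.6 TPM in KO cells under M2, a difference of −0.53 ± 0.050 (SE). Of 24 tested cholesterol synthesis genes, 1 was higher and 2 lower, beside 7.06% and 7.05% of all tested genes. With TMM factors 4 were higher and 1 lower.

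Of the genes tied to each cytokine of the mixture, some responded more and some less in KO cells. In the IL-4 and STAT6 list 7 of 24 tested members were higher and 3 lower, with a median of 0.25. Flt1, Tgm2 and Batf3 differed most there. Batf3, an AP-1 family transcription factor, was listed at 0 in all M0 libraries of both lines and at 1.7, 1.33 and 1.87 TPM in control, against 7.26, 4.86 and 4.92 TPM in KO cells under M2. The M2 levels did not overlap, and the difference was 1.33 ± 0.17. In the IL-10 and STAT3 list 9 of 21 were higher and 3 lower, with a median of 0.10. Bcl3, a nuclear IκB family cofactor, rose from 4.6 ± 0.65 to 43.5 ± 0.34 TPM in control and from 3.34 ± 0.13 to 53.1 ± 4.4 TPM in KO cells, while Ddit4, an inhibitor of mTOR signalling, rose in control cells only by the test, from 66.5 ± 1.1 to 109 ± 3.3 TPM. KO cells held 67.3 ± 6.8 TPM of it at M0 and 71.7 ± 2.3 TPM under M2 (SD, n = 3). The difference for Ddit4 was −0.60 ± 0.075 (limma adjusted p = 1.23e-05).

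TGF-β and SMAD targets were divided, with 4 of 25 tested members higher, 5 lower and a median of 0.02. Tgfbr1, the type I TGF-β receptor kinase (chr4:47353222-47414926), was at 35.0, 35.4 and 35.11 TPM in control M0 and 137.63, 130.94 and 137.79 TPM in control M2 libraries. In KO cells it was at 40.02, 43.18 and 41.76 TPM at M0 and 82.48, 95.0 and 95.85 TPM under M2. KO cells were higher at M0 and lower under M2 in every library, and the difference was −0.81 ± 0.077 (limma adjusted p = 5.1e-07). Id1, an inhibitor of basic helix-loop-helix factors, reached 161 ± 6.9 TPM in control and 133 ± 13 TPM in KO cells (SD, n = 3), with a difference of −0.70 ± 0.15 (SE). Without KO M0 libraries 2 and 3, where the M2 genes counted as traces include Id1, the difference for Id1 was −0.49 and no longer passed (limma adjusted p = 0.0523). Tgfbi, a secreted matrix protein, went the other way, reaching 10.5 ± 0.22 and 20.5 ± 1.9 TPM, a difference of 0.93 ± 0.11 that did not pass with 0.1 TPM.

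Receptor genes for the cytokines shifted in both directions, with 6 of 20 tested receptors and kinases higher and 3 lower. Il13ra2, a decoy receptor that binds IL-13, reached 5.71, 4.9 and 7.14 TPM in control, against 14.97, 18.39 and 14.16 TPM in KO libraries under M2, from 0.54 to 1.16 TPM over the 6 M0 libraries. M2 libraries did not overlap, and the difference was 1.32 ± 0.20 (limma adjusted p = 0.000139). Acvrl1, a type I receptor of the TGF-β family known as ALK1, reached 18.9 ± 0.85 and 29.0 ± 2.1 TPM. Of 7 tested SOCS family genes, feedback inhibitors of cytokine receptors, Cish passed with −0.29 ± 0.090 (limma adjusted p = 0.0374). That call was lost with TMM factors and in several other settings, so Cish is at the edge of what the test can tell.

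Several textbook markers of M2 activation did not pass for a genotype difference in the response. Arg1, arginase 1 (chr10:24915207-24927470), was at 1830.74, 1940.97 and 1857.18 TPM in control M2 and 5191.45, 5097.31 and 4921.88 TPM in KO M2 libraries, which did not overlap. At M0 it was at 0.34, 0 and 0.07 TPM in control, against 0.59, 4.83 and 6.58 TPM in KO libraries, again without overlap. The difference in response was −0.44 ± 0.76 (limma adjusted p = 0.766), with 3 KO M0 libraries spread from 0.59 to 6.58 TPM. It was 0.94 without KO M0 libraries 2 and 3, which held the highest traces of M2 genes, and ranged from −2.42 to 0.94 over the settings tried. Arg1 is itself among the M2 genes counted as traces, so its own levels helped to single out those libraries. The direction for Arg1 thus rested on levels of a few TPM at M0. Mrc1, the mannose receptor, differed by 0.29 ± 0.12 (limma adjusted p = 0.107) and Irf4, a transcription factor of M2 polarization, by 0.27 ± 0.13 (limma adjusted p = 0.172). Mrc1 passed with no variance trend (limma adjusted p = 0.0122) and with no filter on low values (limma adjusted p = 0.0491), and was −0.12 with 0.1 TPM.

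The list of integrated stress and unfolded protein response genes was, of the 32 lists, the one with the largest share of higher differences. Of its 30 tested genes, 17 were higher and 2 lower, beside 7.06% and 7.05% of all tested genes. The median difference of the list was 0.25. The median response was −0.24 in control and 0.12 in KO cells, and KO cells started lower: 25 of the 30 were lower in KO cells at M0 and 16 under M2, with median differences of −0.39 and −0.13. Hspa5, the chaperone BiP (chr2:34772090-34776529), fell in control cells from 1757.29, 1779.01 and 1841.07 TPM to 1459.93, 1482.78 and 1636.16 TPM, and rose in KO cells from 1187.51, 1125.49 and 1189.6 TPM to 1473.28, 1466.91 and 1506.69 TPM. The lines were apart at M0 and overlapped under M2, and the difference was 0.58 ± 0.051 (limma adjusted p = 1.66e-07). Atf3, a stress-induced transcription factor, started alike at 50.7 ± 0.83 and 48.9 ± 4.1 TPM and reached 134 ± 4.1 TPM in control and 202 ± 5.0 TPM in KO cells (SD, n = 3), a difference of 0.65 ± 0.061. Cebpb, a macrophage transcription factor, passed narrowly with 0.94 ± 0.28 (limma adjusted p = 0.0455), and KO M2 library 3 stood at 240.86 TPM against 128.6 and 142.26 TPM. The call for Cebpb was lost in 12 of 22 settings, with an adjusted p by limma of up to 0.315, among them the replicate block and both fits without a pair of libraries. The count of higher members was 16 without KO M0 libraries 2 and 3 and 14 without control M2 libraries 1 and 2, and both lower calls were lost in those fits.

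Among interferon-stimulated genes most calls were lower. Of 46 tested, 2 were higher and 22 lower, beside 7.06% and 7.05% of all tested genes. The median difference of these 46 genes was −0.35. Their median response was −0.18 in control and −0.45 in KO cells. Irf7, the transcription factor that amplifies interferon production, was at 21.03, 19.06 and 19.99 TPM in control M0 and 16.27, 20.24 and 16.69 TPM in control M2 libraries. KO libraries held 18.77, 25.35 and 25.29 TPM at M0 and 9.67, 9.77 and 11.86 TPM under M2. The lines overlapped at M0, KO cells were lower in every library under M2, and the difference was −0.90 ± 0.14 (limma adjusted p = 0.000601). Usp18, which removes the ubiquitin-like ISG15, rose in control cells from 11.4 ± 0.90 to 15.7 ± 0.48 TPM and fell in KO cells from 10.7 ± 1.4 to 8.49 ± 0.29 TPM (SD, n = 3), a difference of −0.73 ± 0.091 (SE). Ifi44 fell from 20.5 ± 0.86 to 5.31 ± 0.22 TPM in control and from 26.1 ± 4.7 to 3.44 ± 0.066 TPM in KO cells. The chemokine Cxcl10, also induced by interferon, was at 4.15, 3.58 and 4.21 TPM and then 7.22, 6.91 and 7.16 TPM in control cells, and at 3.61, 2.49 and 3.4 TPM and then 2.62, 2.08 and 2.01 TPM in KO cells. The difference for Cxcl10 was −1.06 ± 0.12 (limma adjusted p = 4.15e-06). Control M2 libraries 1 and 2 held more of the M1 genes than library 3, and M1 genes include interferon targets. Without them 15 members were lower and 2 higher, and without KO M0 libraries 2 and 3 there were 11 lower and 2 higher. The part of those traces in the list's result was not tested.

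**Figure D4:**
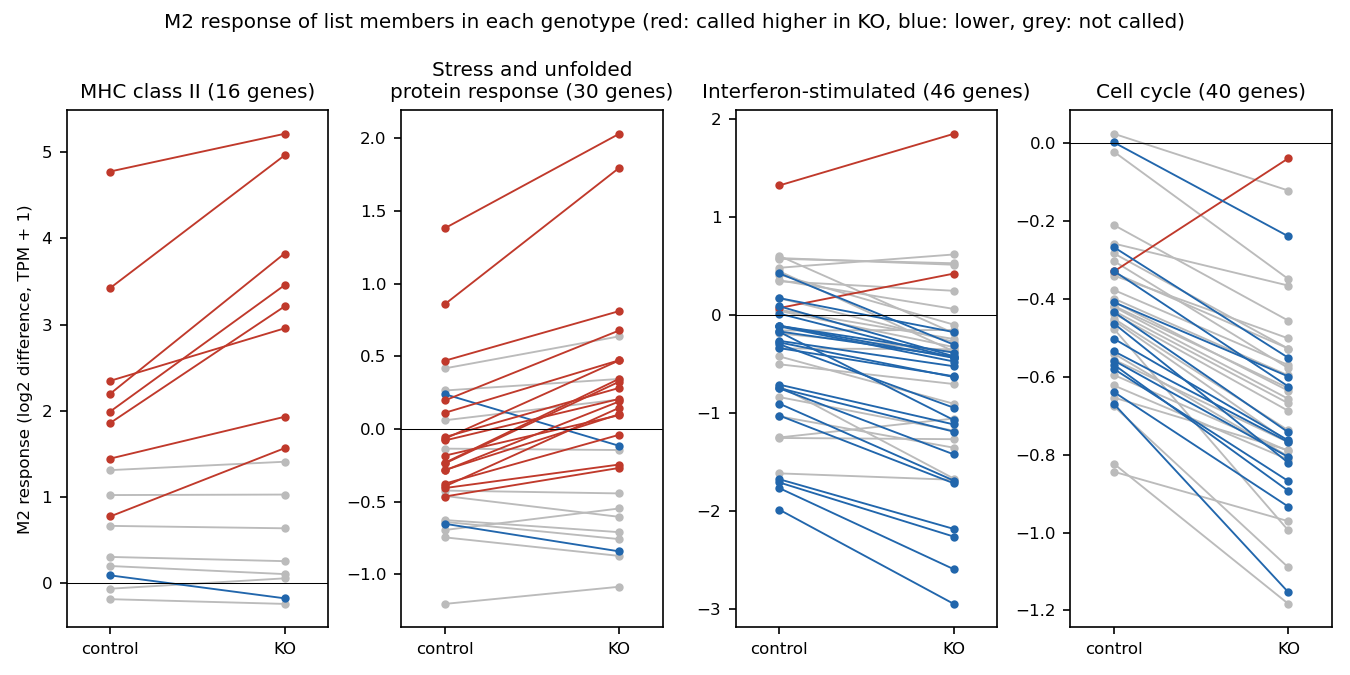
M2 response of each tested member (log2 difference of TPM + 1) in control and KO cells, joined by a line, for 4 gene lists; red lines were called higher and blue lines lower in KO cells, grey lines were not called. Red lines make up 8 of 16 MHC class II genes and 17 of 30 stress response genes, and blue lines 22 of 46 interferon-stimulated and 13 of 40 cell cycle genes.

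Most cell cycle genes fell in both lines, and 13 had a lower response in KO cells. Of 40 tested cell cycle genes, 37 fell in control and 39 in KO cells, with median responses of −0.44 and −0.71. The difference passed as lower for 13 and as higher for 1, with a median of −0.24. Among all tested genes 7.05% were lower and 7.06% higher. Cdk1, the mitotic kinase, was at 136.61, 143.91 and 144.77 TPM in control M0 and 102.45, 105.62 and 99.38 TPM in control M2 libraries, and at 140.49, 142.62 and 137.66 TPM in KO M0 and 83.66, 78.13 and 75.23 TPM in KO M2 libraries. M0 levels overlapped and M2 levels did not, and the difference was −0.36 ± 0.089 (limma adjusted p = 0.00996). Cdk1 no longer passed without KO M0 libraries 2 and 3 or without control M2 libraries 1 and 2 (limma adjusted p = 0.0692 and 0.117). There were fewer calls without these libraries, with 5 lower without KO M0 libraries 2 and 3 and 4 lower without control M2 libraries 1 and 2, with medians of −0.22 and −0.24. Fewer cycling cells and less RNA per cell cannot be told apart in bulk samples.

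Genes of histone methylation, the process opposite to that of Kdm7a, were tested for the same difference. A lower response in KO cells was called for 7.05% of all tested genes. Of 21 tested genes for H3K9 and H3K27 methyltransferases and Polycomb proteins, 8 had a lower response in KO cells, led by Phf1 with −0.46 ± 0.12 (limma adjusted p = 0.014). Only 2 were lower without either pair of libraries with traces. Of 23 tested Jumonji demethylases, 2 were higher, a share of 8.70% that is near the 7.06% of all tested genes. Hr, a histone demethylase named for its hairless mutants, was at 0 to 0.13 TPM in the 6 M0 libraries and at 12.72, 14.0 and 13.17 TPM in control, against 27.16, 36.01 and 34.97 TPM in KO cells under M2. The M2 levels did not overlap, and the difference was 1.14 ± 0.13, which did not pass with 0.1 TPM. Kdm5b, which removes an activating methyl mark, differed by 0.42 ± 0.10. Neither Phf1 nor Kdm5b passed without control M2 libraries 1 and 2 (limma adjusted p = 0.140 and 0.100).

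The remaining lists are given by their counts, to be read beside the shares among all tested genes, 7.06% higher and 7.05% lower. Of 19 tested costimulatory and checkpoint molecules, 7 were higher and 3 lower, with a median of −0.04. Of 13 plasminogen and matrix protease genes, 4 were higher and 2 lower. Plaur, the urokinase receptor, led there with Timp1. It rose from 44.7 ± 2.8 to 102 ± 6.0 TPM in control and from 26.7 ± 2.0 to 125 ± 2.8 TPM in KO cells (SD, n = 3), a difference of 1.01 ± 0.078. Of 28 tested M1-associated genes, 1 was higher and 3 lower, with a median of −0.16. Without control M2 libraries 1 and 2 the median was 0.0064, and without KO M0 libraries 2 and 3 it was −0.11. The part of the M1 traces in the list's median was not tested. Tnf, a classical inflammatory cytokine, fell in both lines, from 73.7 ± 1.5 to 11.0 ± 1.1 TPM and from 70.4 ± 0.65 to 9.44 ± 1.0 TPM, and its difference of −0.14 ± 0.082 did not pass (limma adjusted p = 0.293). Nos2, the inducible nitric oxide synthase, read 2.04, 5.24 and 0.23 TPM in control M2 libraries, the higher values being in libraries 1 and 2, and 0.76, 1.04 and 1.13 TPM in KO M2 libraries. Nos2 is itself among the M1 genes counted as traces. Its difference of −1.04 ± 0.59 did not pass (limma adjusted p = 0.281). Glycolysis genes gave 3 higher and 1 lower of 22, hypoxia targets 2 and 2 of 18, arginine and polyamine genes 2 and 2 of 22, osteoclast genes 2 and 2 of 16, chemokine receptors 2 and 3 of 11, and p53 targets 1 and 2 of 23.

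The largest lower difference belonged to Siglech (chr7:55768154-55779448), a sialic acid-binding receptor best known from plasmacytoid dendritic cells and microglia. Control libraries held 10.29, 10.78 and 9.42 TPM at M0 and 5.91, 6.28 and 5.65 TPM under M2. KO libraries held 29.79, 29.19 and 30.72 TPM at M0 and 2.99, 3.04 and 2.62 TPM under M2. KO cells were highest at M0 and lowest under M2, without overlap in either condition, and the difference was −2.31 ± 0.10 (limma adjusted p = 3.34e-11). Siglech is on the list of markers of other cell types, so its own level is part of the sums that follow. At M0 it made up most of the sum in both lines and most of the gap between them. The summed level of that list was 12.7 to 14.5 TPM in control M0, 24.8 to 26.3 TPM in control M2, 33.4 to 34.8 TPM in KO M0 and 28.4 to 29.7 TPM in KO M2 libraries. Of its 7 tested members Pecam1 and Acta2 were higher, by 0.94 ± 0.13 and 0.51 ± 0.16, each at under 3 TPM in all 12 M0 and M2 libraries. The call for Acta2 was lost in 11 of 20 settings, including without KO M0 libraries 2 and 3, and the part of other cells in these values was not tested.

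Spsb1 and Serpina3g were raised in both lines but much less in KO cells. Spsb1, an adaptor of a ubiquitin ligase (chr4:149896283-149955006), was at 0.2, 0.2 and 0.22 TPM in control M0 and 15.64, 12.31 and 12.39 TPM in control M2 libraries, and at 0.21, 0.18 and 0.17 TPM in KO M0 and 3.39, 3.96 and 4.15 TPM in KO M2 libraries. Serpina3g, an intracellular inhibitor of cathepsins (chr12:104236147-104241939), was at 0.18, 0.1 and 0.24 TPM and then 8.83, 8.17 and 7.73 TPM in control cells, and at 0.16, 0.14 and 0.05 TPM and then 2.12, 1.67 and 2.16 TPM in KO cells. Both pairs of lines overlapped at M0 and were apart under M2. The differences were −1.55 ± 0.14 (limma adjusted p = 3.3e-07) and −1.56 ± 0.10 (limma adjusted p = 3.73e-09).

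Other lower differences came with a higher level in unstimulated KO cells. Cxcr4, the receptor for CXCL12 (chr1:128588199-128592299), was at 2.99, 3.25 and 3.08 TPM in control M0 and 11.88, 13.72 and 10.95 TPM in KO M0 libraries. Under M2 it reached 67.21, 66.0 and 64.89 TPM in control, against 77.28, 77.33 and 79.74 TPM in KO libraries. KO cells were higher in both conditions, but the response was 4.03 in control and 2.59 in KO cells, a difference of −1.44 ± 0.15 (limma adjusted p = 1.72e-06). Il4i1, a secreted L-amino acid oxidase induced by IL-4, read 0.47, 0 and 0 TPM in control M0 and 2.18, 3.8 and 2.76 TPM in KO M0 libraries, and 62.2 ± 2.3 and 76.7 ± 3.3 TPM under M2 (SD, n = 3). Its difference of −1.46 ± 0.28 (limma adjusted p = 0.00276) ranged from −3.74 to −1.19 over the settings. Cp, the copper-carrying ferroxidase ceruloplasmin, fell from 1.58 ± 0.31 to 0.60 ± 0.12 TPM in control and from 7.47 ± 0.36 to 0.88 ± 0.061 TPM in KO cells, and Kmo, an enzyme of the kynurenine path, from 4.27 ± 0.52 to 2.34 ± 0.31 TPM and from 10.8 ± 0.65 to 2.29 ± 0.62 TPM.

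P2ry12, a purinergic receptor that marks microglia, was nearly absent from KO cells. It was at 3.66, 4.52 and 4.15 TPM in control M0 and 11.3, 12.05 and 10.96 TPM in control M2 libraries, and at 0.05, 0.12 and 0.05 TPM in KO M0 and 0.37, 0.09 and 0.17 TPM in KO M2 libraries. The fold responses of 2.78 and 2.86 were close, and the difference of −1.12 ± 0.13 on the log2(TPM + 1) scale did not pass with 0.1 TPM. Snora65, a small nucleolar RNA, was listed at 0 in all 3 KO M2 libraries, against 2.27, 4.85 and 6.32 TPM in control M2, 8.15, 11.4 and 4.31 TPM in control M0 and 4.72, 6.06 and 4.71 TPM in KO M0 libraries. A listed 0 may stand for a failed estimate, and such RNAs lack a poly(A) tail, on which these libraries were selected.

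Cst3 turned in opposite directions in the lines, while Neurl3 and Tagap fell with a call in KO cells only. Cst3, the protease inhibitor cystatin C (chr2:148871722-148875512), rose in control cells from 3360.88, 3390.97 and 3396.73 TPM to 4066.36, 3843.3 and 3853.94 TPM. In KO cells it fell from 3007.44, 3084.69 and 2988.99 TPM to 2347.04, 2166.55 and 2223.45 TPM. KO libraries were below control libraries in both conditions, and the difference was −0.64 ± 0.043 (limma adjusted p = 5.82e-09). Neurl3, a ubiquitin ligase gene, was at 29.0 ± 0.40 and 31.1 ± 0.39 TPM in control M0 and M2 and fell from 19.0 ± 0.79 to 9.36 ± 0.70 TPM in KO cells (SD, n = 3). Tagap, a GTPase-activating protein of immune cells, was at 36.8 ± 2.5 and 35.7 ± 2.9 TPM in control cells and fell from 57.6 ± 2.2 to 24.3 ± 1.8 TPM in KO cells.

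**Figure D5:**
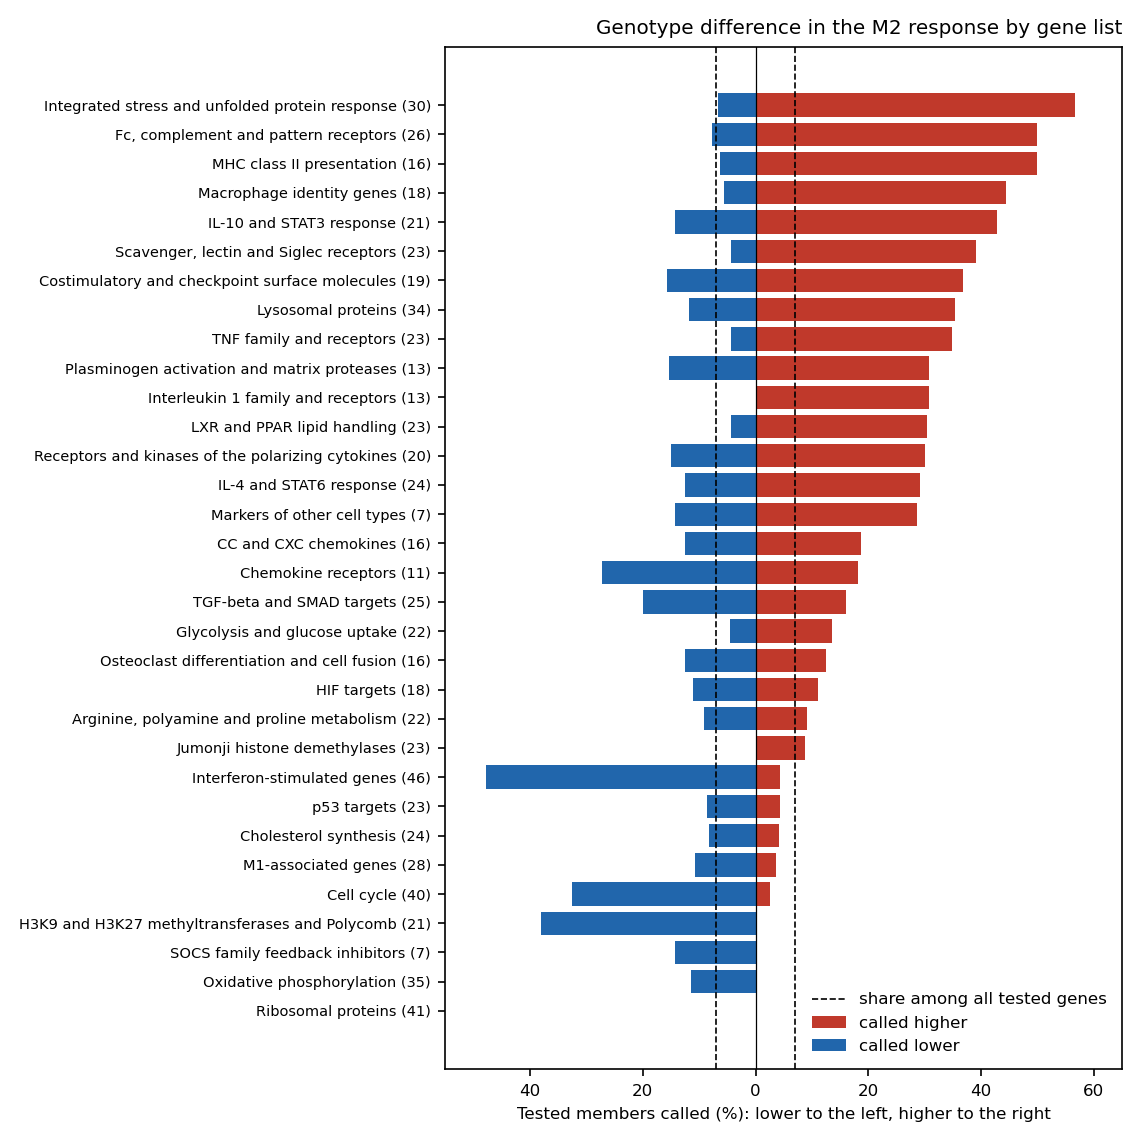
Share of tested members of each gene list with a higher (red, right) or lower (blue, left) M2 response in KO cells, in percent, with the number tested in brackets; dashed lines mark the shares among all tested genes, 7.06% and 7.05%. Stress response, innate receptor and MHC class II lists reach furthest to the right, and the interferon-stimulated list reaches furthest to the left.

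The genotype difference in the response to M1 was set beside that to M2 for the same genes. The contrast between the 2 differences needs no M0 library and passed for 36.2% of tested genes. For Flt1 the M1 difference was 0.61 and the M2 difference 2.33, and these differed by 1.73 ± 0.12 (limma adjusted p = 1.27e-09). For Anpep they were −0.25 and 2.01, for Tgm2 0.21 and 1.83, and for Ccl4 0.04 and 1.94, each with a contrast of at least 1.62 that passed. Spsb1 turned from 0.78 under M1 to −1.55 under M2, Neurl3 from 0.96 to −1.05, Cst3 from 0.83 to −0.64 and P2ry12 from 2.05 to −1.12, and all 4 contrasts passed. P2ry12 was nearly absent from KO cells at M0 and M2, and its M2 difference did not pass with 0.1 TPM. Msr1 gave 1.74 and 1.96, Hspa5 0.61 and 0.58, Cp −1.38 and −1.49 and Kmo −1.06 and −1.20. Those contrasts did not pass (limma adjusted p = 0.0699, 0.633, 0.497 and 0.562), which does not show that the differences were equal. Msr1, Hspa5, Cp and Kmo differed between the lines at M0, a condition that enters both differences. So did Neurl3, Cst3 and P2ry12, and the part of the M0 levels in either set was not tested.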

How the data were processed

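Poly(A) RNA was sequenced from 18 RAW264.7 libraries in 6 groups of 3. The authors deposited 1 table of TPM values per gene symbol, and every column summed to the same total. Trim Galore and mm10 are named per the submitters' processing notes, while the choice of aligner, quantifier and annotation is not given in the sources used here. Since TPM keep no depth, library depths are unknown, and counting intervals are left out.

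Testing took genes that reached 1 TPM in 3 or more of the 18 libraries, 11548 of 24411 symbols. A model of 6 group means was fitted to log2(TPM + 1) with limma 3.58.1 (robust, with a variance trend) in R 4.3.3, so all 18 libraries shared 1 estimate of the spread. Calls are two-sided at a Benjamini-Hochberg adjusted p below 0.05 over all tested genes. Fold changes on this scale understate those of low genes. Positions and promoters come from RefSeq GRCm38.p6, the build of mm10, and 23194 symbols matched. The fit was tested on simulated data.

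Named genes were Kdm7a, the 12 largest called differences each way among genes with a mean of 5 TPM or more in a group, up to 4 per response pattern, 21 markers of polarization and up to 3 called members per list. The members and lists were chosen with earlier results of these data known. Groups sharing replicate numbers were checked for pairing: same-numbered libraries correlated between −0.16 and 0.15, with 4 of 18 pairs over 0.1, so they were not treated as pairs. Alternatives were TMM factors (trimmed mean of M values, computed directly on the TPM), median-ratio scaling, no trend, other filters, a constant of 0.1 TPM, only the groups compared, a replicate block and each replicate left out. No 2 of the 153 library pairs held identical values. Results for some genes are not reported here.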

Additional observations from a re-analysis of the deposited data

Results flagged for a closer look

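The M2 response differed between the genotypes at 1629 genes by the interaction term in limma, and this genotype difference itself differed between M2 and M1 stimulation at 4177 genes. In 11 named genes the response was called in opposite directions in the lines. The genotype difference was positive for Ccl3 (1.43), the RNA-binding protein gene Igf2bp2 (1.34), the immune receptor gene Cd300lh (1.18), the complement C5a receptor gene C5ar1 (0.80) and the chaperone gene Hspa5 (0.58), all in log2 units, which control cells lowered and KO cells raised. It was negative for the cytochrome c1 gene Cyc1 (−0.26), the thiolase gene Acat2 (−0.27), Rogdi (−0.61), Cst3 (−0.64), Usp18 (−0.73) and Cxcl10 (−1.06), which control cells raised and KO cells lowered.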

How the results depend on the processing

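Of 114 named genes called, 78 kept the call and direction in every setting tried, 35 lost the call in at least 1 and 2 reversed. Differences called higher were 531 without control M2 libraries 1 and 2, a setting chosen after seeing the data, and 62.5% of the original calls were made again. Differences called lower were 313 in that fit and 335 without KO M0 libraries 2 and 3, with 36.6% and 37.0% made again. KO and control cells differed at 1133 genes at M0 without KO M0 libraries 2 and 3 and at 1741 under M2 without control M2 libraries 1 and 2. With 0.1 TPM in place of 1 TPM, 53 genes were lower by 2-fold or more. Leaving out each replicate in turn gave 646 to 1120 higher and 571 to 864 lower, 50 to 61 and 18 to 29 of these at 2-fold or more, with 29 without control M2 replicate 3. It gave 3770 to 4507 genes for M2 against M1, 1689 to 2008 for genotype at M0, 2766 to 3759 for genotype under M2, 7991 to 8193 for the KO response and 7053 to 7171 for the control response. The cause was not tested. A replicate block gave 788 higher and 771 lower, with 57 and 19 at 2-fold or more. Signs turned with 0.1 TPM for H2-Ab1 (−0.40), Ciita (−0.23), Mrc1 (−0.12), Cd86 (−0.064) and Socs3 (−0.015). Without control M2 libraries 1 and 2, Il10 was −0.052, Socs3 −0.014 and Nos2 0.17, and without KO M0 libraries 2 and 3, Ccl22 was 0.028 and Arg1 0.94. With single replicates left out, Il10 ranged from −0.013 (without control M2 replicate 1) to 0.094, Socs3 from −0.023 (without KO M0 replicate 2) to 0.10 and Arg1 from −1.13 to 0.00079 (without KO M0 replicate 3). Apart from H2-Ab1 and Ciita, none of these genes passed in the fit reported. TPM give no depth, so what depth limits is unknown.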
